A study of Homo sapiens with 12 samples.

Results

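Genes of DNA damage tolerance, 10 in all, were followed in TK6 cells exposed to 3-methylcholanthrene, and none of the 10 passed a test against untreated cells at any concentration. Nor did any other of the 12030 genes tested (0% called at each concentration). The 10 genes are RAD18, HLTF, POLH, POLI, POLK, REV1, REV3L, MAD2L2, POLQ and PRIMPOL. They were chosen by name, and all 10 were found among the 50006 gene entries of the count table. All 10 also passed the filter on low counts, so that each had a test.

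When a replication fork meets a damaged base that the replicative polymerases cannot copy, the sliding clamp PCNA is ubiquitinated by RAD18 and the stalled polymerase is exchanged for a translesion polymerase with an open active site. Y-family polymerases insert a base opposite the lesion, and polymerase zeta, which is built around REV3L and MAD2L2, extends from it. Bulky adducts of polycyclic aromatic hydrocarbons on guanine are textbook substrates of this pathway, and the choice of polymerase decides whether the adduct is passed accurately or with a mutation.

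TK6, a B-lymphoblastoid cell line from a human donor, is widely used in mutation assays, and every library came from TK6 (IVGT) cells of the JCRB Cell Bank. Cells were incubated for 24 h with 3-methylcholanthrene, a carcinogenic polycyclic aromatic hydrocarbon, and polyadenylated RNA was sequenced. Each of the 4 groups held 3 libraries. Control cells received 0 µg/mL, and the exposures called low, medium and high here were 0.0004, 0.04 and 4 µg/mL. Neither the solvent nor any metabolic activation mix is named in the labels. Nor do they say that replicates were grown as separate cultures, so the spread behind each p-value may be technical.

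Library totals ran from 9163368 to 19841387 counts, and the 10 genes together took 3547 to 7842 counts per library. Of 10 B lymphoid markers 9 had more than 3 counts in every library, while HLA-DRA was at 0 to 0.211 CPM (counts scaled to a common library total) and all 3 erythroid markers had no counts. Only the entry with the plain gene name was read for each marker. The low value of HLA-DRA therefore does not show that its transcript was absent. Of the markers of other cell types NKG7 (1 of 6 T and NK markers, 2.98 to 7.02 CPM), CSF1R and CD33 (2 of 5 myeloid markers, 0.583 to 4.36 CPM) passed 3 counts in every library. So did KRT8, VIM and COL1A1 of the 5 stromal and epithelial markers, at 107 to 158, 376 to 450 and 2.2 to 6.07 CPM, while EPCAM, CD8A, GNLY and MPO were at 0. Low replicate 3 and high replicate 3 were the highest of the libraries in mitochondrial 16S ribosomal RNA and in small noncoding RNA. The 16S RNA took 7.99% and 7.96% of their counts against 1.43% to 5.52% elsewhere. In these libraries the small noncoding RNAs 7SL, 7SK and RMRP summed to 141 and 110 CPM against 6.2 to 98.7 CPM elsewhere. In that sum high replicate 1, at 98.7 CPM, lay close to high replicate 3. Differences that leaned on low replicate 3 or high replicate 3 are given with and without them.

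Before the values, the promoters of 4 of these genes are shown, because POLH and RAD18 rose and fell together across the libraries while HLTF and POLQ moved together in the opposite direction. RefSeq windows of GRCh38.p14 were found for all 10 genes (12 windows, from 250 bases before to 50 after a transcript start), and the stretch from 220 bases before to 30 after the start is printed 5′ to 3′ on the gene's strand. Capitals mark the letters TTTGAA or TTCGAA, the core of the CHR element of cell-cycle promoters, and GCGTG, the core of the site bound by the aryl hydrocarbon receptor (AHR), the receptor of 3-methylcholanthrene, each on either strand.
HLTF (chr3:149086504-149086753, minus strand): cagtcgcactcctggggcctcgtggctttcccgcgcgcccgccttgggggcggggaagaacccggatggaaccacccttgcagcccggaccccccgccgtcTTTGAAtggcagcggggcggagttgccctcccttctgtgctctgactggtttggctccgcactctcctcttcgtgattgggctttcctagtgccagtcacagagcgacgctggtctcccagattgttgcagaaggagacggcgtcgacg
POLQ (chr3:121545959-121546208, minus strand): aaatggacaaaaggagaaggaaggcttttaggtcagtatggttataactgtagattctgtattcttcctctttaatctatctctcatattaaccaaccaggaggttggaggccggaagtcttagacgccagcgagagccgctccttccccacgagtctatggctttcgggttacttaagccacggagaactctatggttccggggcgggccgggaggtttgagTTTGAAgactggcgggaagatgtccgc
POLH (chr6:43575965-43576214, plus strand): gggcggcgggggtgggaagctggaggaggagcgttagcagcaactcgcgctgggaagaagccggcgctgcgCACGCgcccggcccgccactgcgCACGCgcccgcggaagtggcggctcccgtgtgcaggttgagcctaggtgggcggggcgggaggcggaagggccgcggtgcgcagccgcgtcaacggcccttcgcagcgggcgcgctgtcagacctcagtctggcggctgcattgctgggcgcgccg
RAD18 (chr3:8963443-8963692, minus strand): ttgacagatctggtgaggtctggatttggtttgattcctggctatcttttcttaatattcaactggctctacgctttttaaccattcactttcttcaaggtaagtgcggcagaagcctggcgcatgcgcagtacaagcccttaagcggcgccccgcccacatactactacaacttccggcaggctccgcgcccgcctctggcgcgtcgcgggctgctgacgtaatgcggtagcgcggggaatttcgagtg
In these windows HLTF held TTTGAA 119 bases before the start and POLQ held it 3 bases after the start, with a second match 230 bases before it, outside the printed stretch. PRIMPOL was the third gene with such a match, and 16.4% of the 35116 RefSeq windows held one. Over the 12 libraries the Pearson correlation of log2 CPM of PRIMPOL was -0.0558 with HLTF and 0.082 with POLQ. A link between these letters and the levels was not tested. POLH held the AHR core letters 149 and 126 bases before its start, as CACGC on the printed strand. In all, 7 of the 10 genes held GCGTG in a window (MAD2L2, POLH, POLI, POLK, PRIMPOL, REV1 and REV3L), against 36.5% of all windows. For all letters here members are counted as genes and the background as windows, and MAD2L2 and REV3L had more than a single window. The windows of the 10 genes had 50.3% to 80.7% G and C, against a median of 58.7% over all windows, and GCGTG is itself rich in G and C. The CCAAT box was found for HLTF and MAD2L2 (34.6% of all windows), and the E2F letters TTTGGCGC or TTTCGCGC for no member (1.15% of all windows). HLTF thus held both CCAAT and TTTGAA, RAD18 held none of these letters, and such matches are descriptions of sequence only.

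Levels were compared between genes per kilobase of exon, because a longer transcript gives more counts. In control cells the order per kilobase of all exons in the count table ran from MAD2L2, the small HORMA-domain subunit of polymerase zeta, at 31.6 ± 0.911 CPM per kb down to POLI, a Y-family polymerase, at 0.468 ± 0.00461 CPM per kb (SD, n = 3 for each level here). RAD18, the ubiquitin ligase of PCNA, followed MAD2L2 at 12.6 ± 0.671 CPM per kb, and HLTF, a ligase and fork translocase that extends the ubiquitin chain, stood at 10.3 ± 0.906 CPM per kb. POLQ, the helicase-polymerase of end joining, reached 7.98 ± 0.71 CPM per kb. POLH, the polymerase that copies ultraviolet photoproducts accurately and is lost in the variant form of xeroderma pigmentosum, reached 4.44 ± 0.457 CPM per kb. The 2 subunits of polymerase zeta lay far apart by this length, with the catalytic subunit REV3L at 2.82 ± 0.153 CPM per kb. PRIMPOL, which reprimes synthesis ahead of a lesion, overlapped REV3L in range at 3.43 ± 0.751 CPM per kb. REV1, the deoxycytidyl transferase and scaffold of the other polymerases, and POLK, which copies past hydrocarbon adducts on guanine, were next to last and did not differ beyond their spread (1.88 ± 0.278 and 1.83 ± 0.0968 CPM per kb). Over all 12 libraries MAD2L2 lay at the 86.4th percentile, RAD18 at the 70th and POLI at the 13.1st percentile of the 12382 genes counted in every library.

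Part of this order follows from the annotated length. The exons in the count table add up to 17306 bases for POLK, 15349 for REV1 and 8533 for POLH, which is 2.93, 3.23 and 2.41 times the principal transcript in GENCODE 29. The ratio is 1.84 for REV3L but 0.688 for MAD2L2, so that the gap between these 2 subunits is narrower per kilobase of the principal transcript. Per kilobase of the principal transcript POLH stood at 10.7 ± 1.1 CPM per kb, level with HLTF (10.4 ± 0.919) and overlapping RAD18 (12.6 ± 0.668). REV1 at 6.08 ± 0.899, POLK at 5.35 ± 0.283 and REV3L at 5.17 ± 0.281 CPM per kb then formed a middle group whose neighbours overlapped, above PRIMPOL at 3.77 ± 0.826. MAD2L2 (21.8 ± 0.626 CPM per kb) stayed first and POLI (1.04 ± 0.0103 CPM per kb) last with either length.

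**Figure D1:**
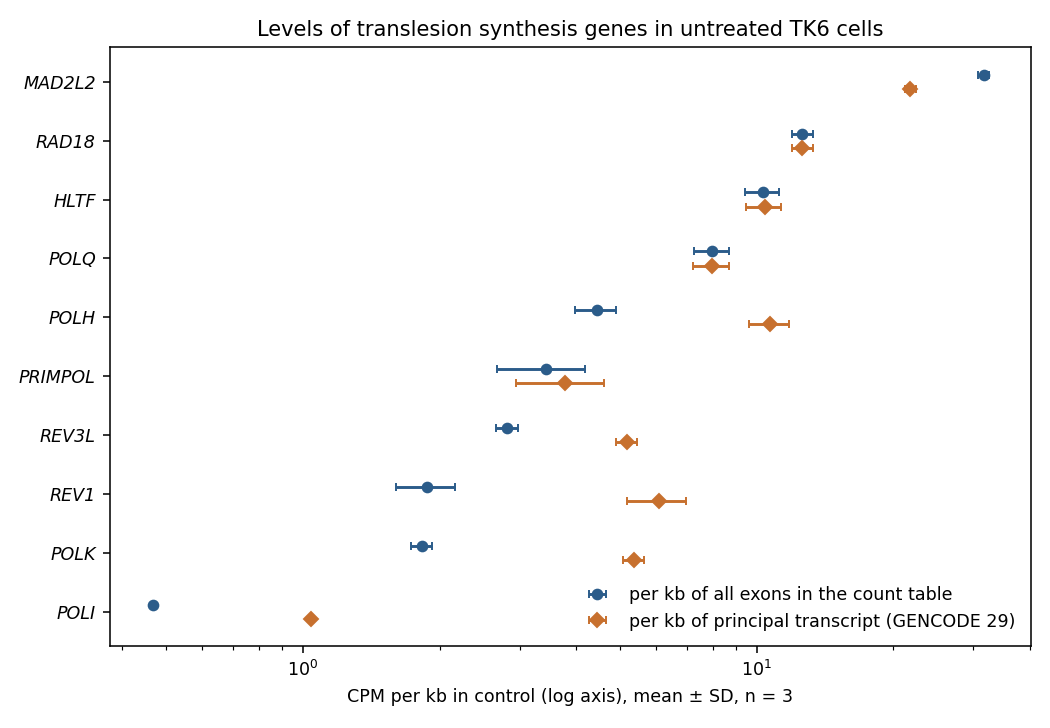
Levels in the 3 control libraries in CPM per kb on a log axis (points, mean; bars, SD), per kilobase of all exons in the count table (circles) and of the principal transcript (diamonds). MAD2L2 is highest and POLI lowest with either length, while POLH, REV1 and POLK move up by 2.41 to 3.23 times with the shorter length.

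The first question of the design is whether exposure changed these transcripts. At each of the 3 concentrations 0 of the 10 genes were called by edgeR's quasi-likelihood test, where 0% of the 12030 genes tested were called. At an unadjusted p below 0.05, 0 of 10 passed in low (2.82% of all genes), 1 in medium (1.98%) and 1 in high (3.12%). For the 10 genes the median log2 fold change came to -0.00522, 0.05 and 0.07 at the rising concentrations, beside 0.00747, -0.00168 and 0.0036 over all genes tested. In high 8 of the 10 lay above control and 2 below, beside 6092 above and 5938 below of the 12030 genes tested. When libraries were scaled by their totals alone 5 members lay above and 5 below. With that scaling the median over all genes in high was -0.0533. The trend over the 4 concentrations and the test for any group difference called 0 of 10 as well (0% of all genes each), with 0 and 1 at an unadjusted p below 0.05 (2.89% and 1.75%). All 3 comparisons share the same control libraries.

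A second reading asked whether all 3 treated libraries lay outside all 3 controls in CPM. In low 0 of the 10 genes lay above in this way (2.34% of all genes tested) and 1, POLK, lay below (4.99%). In medium 1, MAD2L2, lay above (3.26%) and 0 below (8.30%), and in high 0 lay above (1.85%) and 0 below (8.28%).

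RAD18 and HLTF act first, on PCNA. RAD18 (chromosome 3, 8877075 to 8963472, minus strand, GRCh38.p14) had the highest mean CPM of the 10 in every group and varied least over the libraries, with a coefficient of variation of 5.69%. It measured 77.4, 74.9 and 69.7 CPM in control replicates 1 to 3, 75.4, 78.5 and 82.7 in low, 78.9, 78.1 and 73.8 in medium, and 85.3, 74.9 and 83.2 in high. High replicates 1 and 3 lay above every control, while high replicate 2 lay among them. The difference between high and control was 0.19 ± 0.08 on the log2 scale (SE), a 1.14-fold level (95% interval 1.01 to 1.29; edgeR adjusted p = 0.81). The slope per step of concentration was 0.05 ± 0.025 (log2, SE; edgeR adjusted p = 0.854). Without high replicate 2 the difference in high was 0.23, and without high replicate 3 it was 0.17. In low it was 0.13, and 0.0797 without low replicate 3.

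HLTF (chromosome 3, 149030063 to 149086533, minus strand) measured 51.6, 61.0 and 54.0 CPM in control, 42.4, 57.5 and 34.5 in low, 43.3, 55.3 and 44.0 in medium, and 47.6, 52.3 and 37.8 in high. In each treated group replicate 2 fell within the control range and the other 2 libraries lay below it. The log2 differences were -0.27 ± 0.18 in low, -0.19 ± 0.18 in medium and -0.22 ± 0.18 in high (SE; edgeR adjusted p = 0.911, 0.998 and 0.81). Single libraries moved these values both ways. In low the value was -0.13 without replicate 3 and -0.48 without replicate 2, in medium -0.12 without replicate 1 and -0.30 without replicate 2, and in high -0.10 without replicate 3 and -0.33 without replicate 2. Of the exon bases of HLTF 34.5% are also exon bases of GYG1 or HLTF-AS1 on the other strand, and as the use of strand in counting is not given, reads from these genes cannot be told apart there. In these bulk samples fewer cells with a transcript and less of it per cell cannot be told apart either.

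The Y-family polymerases insert a base opposite the lesion. POLH (chromosome 6, 43576185 to 43620523, plus strand) measured 42.2, 36.6 and 34.7 CPM in control, 42.6, 36.4 and 61.5 in low, 45, 38.7 and 33.8 in medium, and 52.1, 32.6 and 52.9 in high. The lowest and the highest of these values both came from treated libraries. It had the widest spread of the 10 genes, with a coefficient of variation of 21.2%. Relative to control POLH stood at 1.28 times in low (95% interval 0.909 to 1.8), 1.06 in medium (0.754 to 1.49) and 1.26 in high (0.896 to 1.76), with edgeR adjusted p of 0.911, 0.998 and 0.81. In low the log2 value was 0.35 with all libraries, 0.09 without low replicate 3 and 0.51 without low replicate 2. In high it was 0.33 with all libraries, 0.21 without high replicate 3 and 0.52 without high replicate 2.

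POLK (chromosome 5, 75510774 to 75609991, plus strand) measured 31.2, 33.5 and 30.2 CPM in control and 25.4, 29.9 and 24.4 in low. All 3 low libraries thus lay below all controls, as did those of 4.99% of all genes tested. The log2 difference was -0.21 ± 0.11 (SE; edgeR adjusted p = 0.911). At the higher concentrations POLK overlapped the controls, with 30.9, 31.0 and 27.8 CPM in medium and 35.5, 28.9 and 28.2 in high. Of these, 1 medium library and 2 high libraries lay below every control. In high the log2 difference was 0.02 ± 0.11 (edgeR adjusted p = 0.955; -0.03355 when scaled by library totals alone).

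REV1 (chromosome 2, 99400477 to 99490202, minus strand) measured 24.3, 32.7 and 29.6 CPM in control, 26.8, 30.3 and 37.1 in low, 31.2, 28 and 33.7 in medium, and 30.8, 27.1 and 31.5 in high. All groups overlapped, and the high libraries averaged 1.07 times control (95% interval 0.841 to 1.36, edgeR adjusted p = 0.844). In low its log2 difference was 0.16, with 0.00299 without low replicate 3 and 0.27 without low replicate 1. POLI (chromosome 18, 54269479 to 54321266, plus strand) had the fewest counts, 42 to 160 per library. Its controls lay close together at 6.33, 6.44 and 6.45 CPM, while the treated libraries ran on both sides of them, from 4.24 in low replicate 1 to 8.06 in high replicate 2. The controls rested on only 60, 61 and 88 counts, so that their closeness does not show a tightly set level. High against control came to 1.11 times (95% interval 0.757 to 1.63, edgeR adjusted p = 0.849), so that a change of POLI within these bounds could not be told from none.

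Polymerase zeta gave the smallest p-value against control among the 10 genes, in its accessory subunit. MAD2L2 (chromosome 1, 11674480 to 11691830, minus strand), also known as REV7, links REV3L to REV1 and serves in the shieldin complex at double-strand breaks. It measured 39.8, 41.8 and 39.8 CPM in control and 47.3, 47.2 and 53.1 in medium, so that all 3 medium libraries lay above all controls, as did those of 3.26% of all genes tested. The fold in medium was 1.25 with a 95% interval from 1.07 to 1.46 (log2 0.32 ± 0.10, SE; edgeR adjusted p = 0.998). After adjustment over all genes it did not pass. Leaving out 1 library at a time gave log2 values from 0.25 to 0.36. At the neighbouring concentrations MAD2L2 overlapped the controls. It measured 46.9, 38.9 and 40.5 CPM in low and 38.6, 39.6 and 41.9 in high, where the log2 difference was 0.04 ± 0.10 (edgeR adjusted p = 0.899; -0.01513 when scaled by library totals alone). The test for any difference among the 4 groups gave an edgeR adjusted p = 0.998.

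REV3L (chromosome 6, 111299033 to 111483711, minus strand), the catalytic subunit, measured 59.4, 54.6 and 53.8 CPM in control, 49.8, 56.3 and 45.6 in low, 53.8, 63.9 and 48.8 in medium, and 56.2, 54.4 and 51.9 in high. All groups overlapped. In high it stood at 1.01 times control (95% interval 0.861 to 1.18, edgeR adjusted p = 0.976), among the narrowest intervals of the 10 genes. In medium, where MAD2L2 was high, the log2 difference of REV3L was 0.02 ± 0.10 (edgeR adjusted p = 0.998; -0.009832 when scaled by library totals alone).

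POLQ and PRIMPOL offer routes other than direct bypass. POLQ (chromosome 3, 121431431 to 121545988, minus strand) joins resected ends with microhomology and can also copy past lesions. It measured 62.7, 73.5 and 73.5 CPM in control, 62.0, 70.3 and 41.1 in low, 62.7, 77.7 and 60.9 in medium, and 62.5, 67.3 and 49.4 in high. Low replicate 3 and high replicate 3 were the lowest of the 12 libraries. The log2 differences were -0.24 ± 0.18 in low and -0.17 ± 0.18 in high (SE; edgeR adjusted p = 0.911 and 0.81), and without those libraries, left out one at a time, they were -0.06 and -0.05. Without low replicate 2 and without high replicate 2 they were -0.40 and -0.28. PRIMPOL (chromosome 4, 184649738 to 184694952, plus strand) measured 9.82, 6.44 and 9.60 CPM in control, 10.6, 10.5 and 8.18 in low, 7.42, 11.1 and 10.2 in medium, and 10.4, 10.1 and 9.81 in high. Control replicate 2 was the lowest of all libraries, with 61 counts, and the log2 difference in high was 0.29 ± 0.21 with it and 0.11 without it (edgeR adjusted p = 0.81 with it). In low and medium the values were 0.21 and 0.19 with it, and 0.0407 and 0.0129 without it. They reached 0.33 in low without control replicate 3 and 0.34 in medium without medium replicate 1. CENPU on the other strand covers 29.5% of the exon bases of PRIMPOL.

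**Figure D2:**
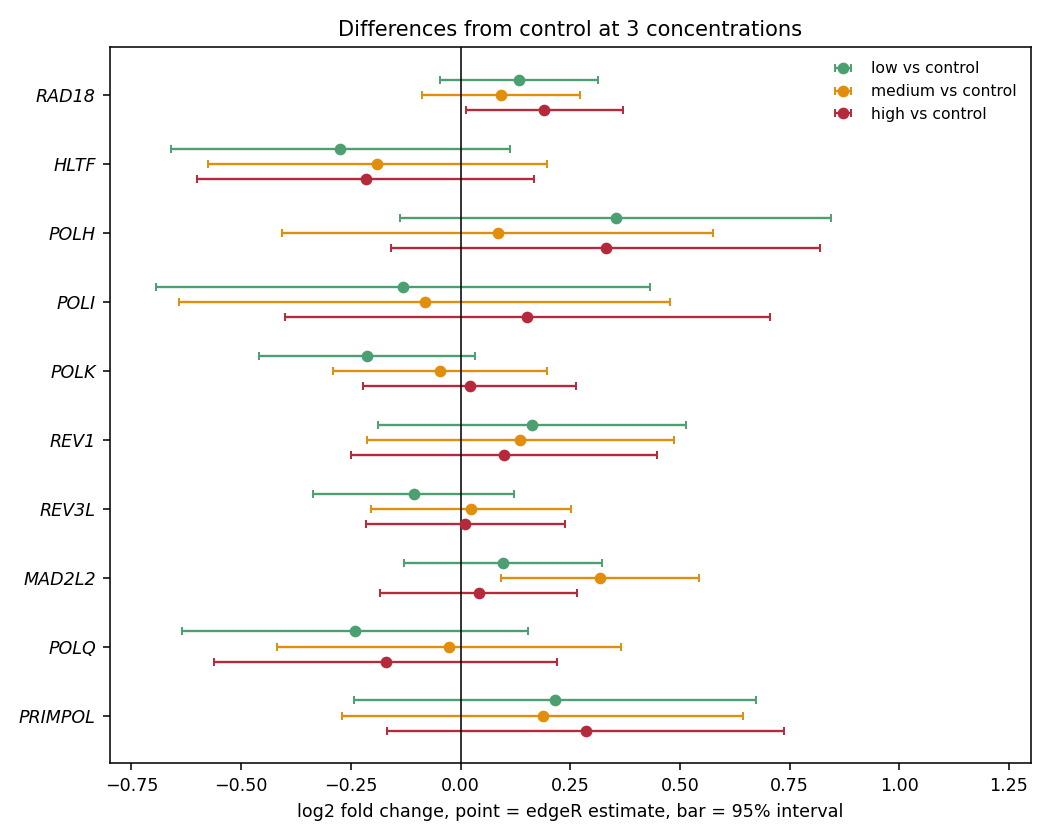
Log2 fold change from control for each gene at the 3 concentrations (points, edgeR estimates; bars, 95% intervals; vertical line, no difference). The intervals of MAD2L2 in medium and RAD18 in high lie above 0, and neither gene passed after adjustment over all genes tested.

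A few pairs of the 10 genes varied together. Over the 12 libraries, 2 of the 45 pairs had a Pearson correlation of log2 CPM above 0.8 and 2 had one below -0.8, while 30 pairs were between -0.5 and 0.5. HLTF and POLQ had the highest, at r = 0.9, and RAD18 and POLH followed at r = 0.841. The opposite pairs were POLH with POLQ (r = -0.855) and HLTF with POLH (r = -0.817). Among deviations from the group means the values were 0.921, 0.908, -0.823 and -0.802 in the same order, so that libraries of the same concentration differed in this way too. How often other pairs of genes in the table reach such values was not computed. The 12 points share the cell line and differ in depth and in 16S share, and these correlations are descriptions. REV3L and MAD2L2, partners in polymerase zeta, had r = -0.277. Among the 12029 other genes tested, those most like the 4 genes were SPIN4 for HLTF (r = 0.973), NCOA2 for POLQ (r = 0.974), CCDC71 for POLH (r = 0.985) and PSD for RAD18 (r = 0.958). For the other members the closest gene had r from 0.825 (DOK4 for PRIMPOL) to 0.906 (MYO5C for REV3L), with FAM111A-DT for POLI, MCTS1_1 for POLK, TEX2 for REV1 and ETFB for MAD2L2 between them.

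**Figure D3:**
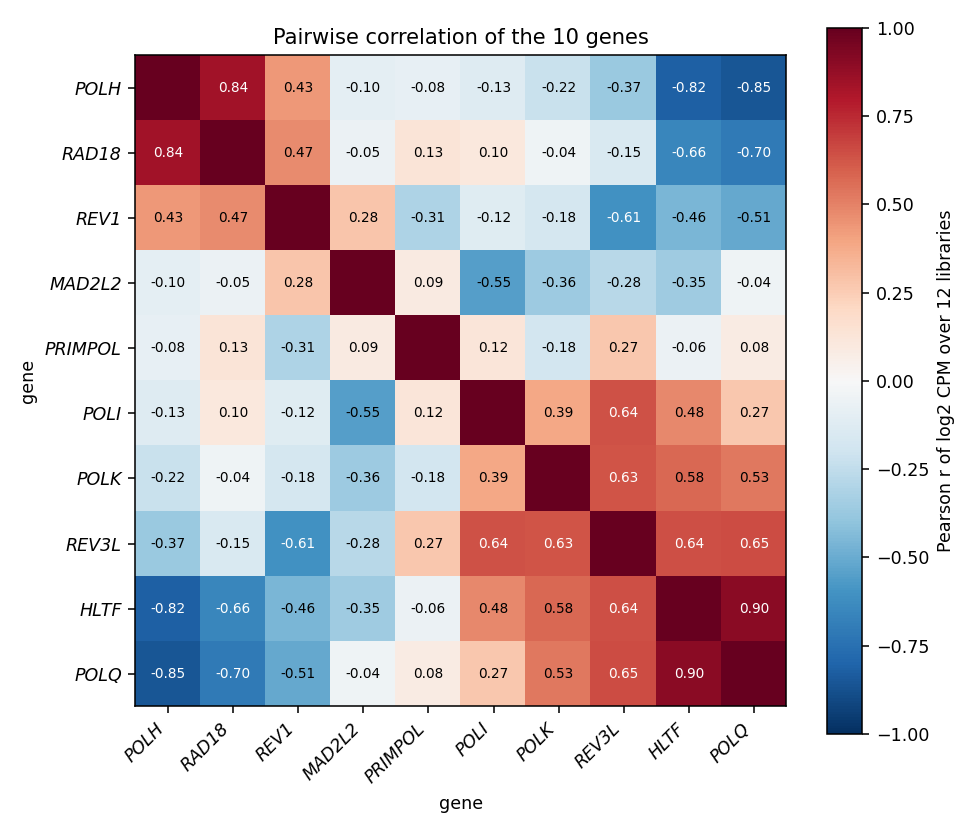
Pearson correlation of log2 CPM over the 12 libraries for each pair of genes (colour and number in each cell). POLH and RAD18 form one corner and HLTF and POLQ the other, with negative values between them down to -0.855.

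The same 4 genes moved with the 16S ribosomal RNA share of the libraries, a relation examined after the values had been seen. POLH rose with it (Pearson r = 0.91, permutation p = 1e-05, the smallest that 100000 permutations can give, adjusted p = 0.0001 over the 10 genes; Spearman rho = 0.902, permutation p = 0.00012, adjusted 0.0012). RAD18 rose as well (r = 0.765, permutation p = 0.00402, adjusted 0.01; rho = 0.678, p = 0.0185, adjusted 0.0463). HLTF fell (r = -0.855, permutation p = 0.00051, adjusted 0.0017; rho = -0.797, p = 0.00304, adjusted 0.0101), and so did POLQ (r = -0.825, permutation p = 0.00024, adjusted 0.0012; rho = -0.797, p = 0.00268, adjusted 0.0101). Without low replicate 3 and high replicate 3, the libraries farthest from the median share, r was 0.85 for POLH, 0.557 for RAD18, -0.724 for HLTF and -0.707 for POLQ in 10 libraries. Within groups, as deviations from the group means, r was 0.948, 0.848, -0.866 and -0.876. For the other 6 genes r lay between -0.347 and 0.373, with adjusted permutation p of 0.446 or more. A share of 14% of all genes tested had an r at least as large in size as that of POLH, 24% as that of HLTF, 28.9% as that of POLQ and 36.8% as that of RAD18, so these 4 genes follow a pattern common in the table. The part of the 16S share, or of what sets it, in the differences between concentrations was not tested.

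**Figure D4:**
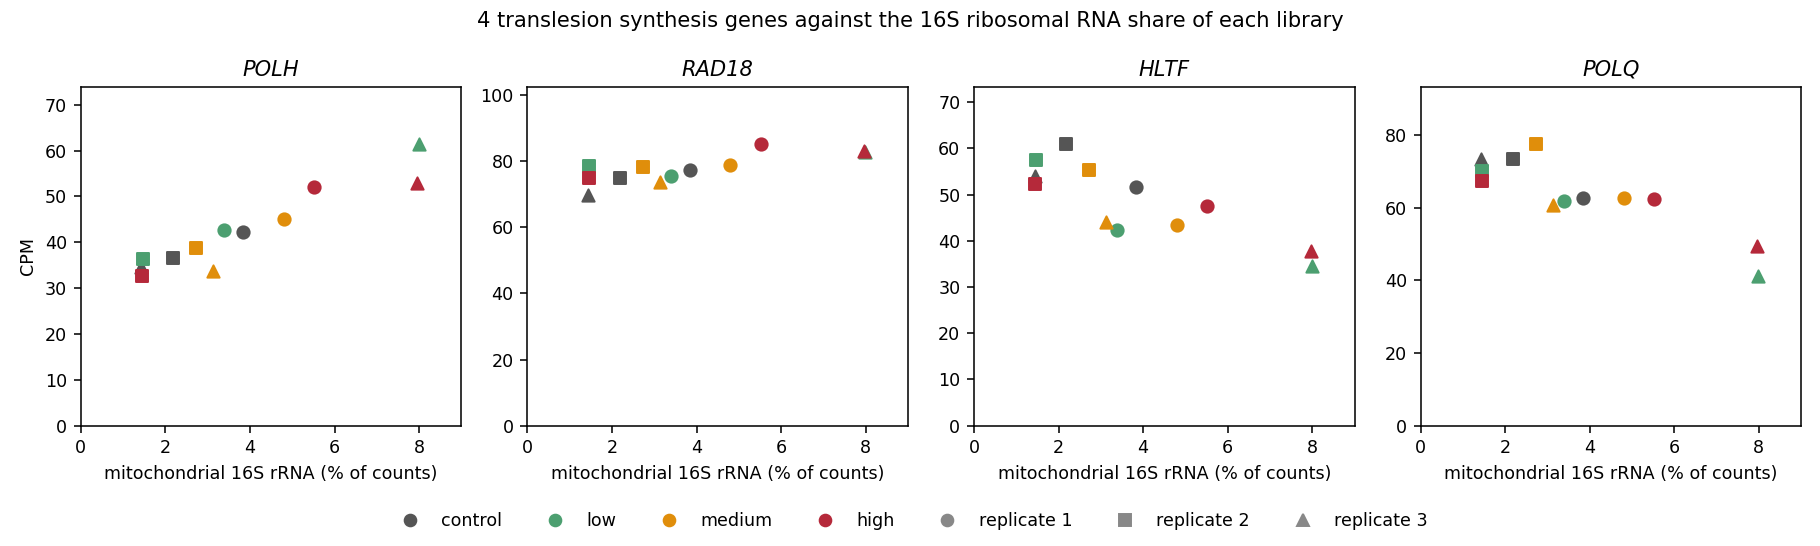
CPM of POLH, RAD18, HLTF and POLQ (vertical axes from 0) against the mitochondrial 16S ribosomal RNA share of counts in each library; colours are groups and shapes are replicate numbers. POLH and RAD18 are higher and HLTF and POLQ lower where the share is higher, within groups as well as across them.

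The wider pathway was read from a list of 42 other damage tolerance genes, of which 40 could be tested. In low, medium and high 0 of the 40 were called by edgeR, with 1, 1 and 0 at an unadjusted p below 0.05, and their median log2 differences were -0.00946, 0.00519 and 0.02. PCNA, the clamp itself, differed by 0.06 ± 0.09 in high (log2, SE; edgeR adjusted p = 0.826), and of the E2 enzymes that ubiquitinate it UBE2B differed by 0.06 ± 0.12 and UBE2N by 0.10 ± 0.09. SHPRH, the ligase related to HLTF, differed by -0.25 ± 0.17. USP1, which removes ubiquitin from PCNA, differed by 0.18 ± 0.14, its partner WDR48 by -0.16 ± 0.11, the unloading factor ATAD5 by -0.11 ± 0.11 and the protease SPRTN by -0.21 ± 0.13. By sublist, the median log2 differences in low, medium and high were -0.106, -0.0493 and 0.0272 for 10 genes of PCNA ubiquitination and -0.0356, -0.0278 and -0.0778 for 7 of deubiquitination and unloading. They were -0.02, 0.0395 and -0.024 for 15 genes of the clamp, its loader and the replicative polymerases. A sublist of other specialised polymerases and the helicase HELQ had 0.0974, 0.105 and 0.131 for the 4 genes tested. The 4 fork remodelling genes had 0.15, 0.12 and 0.14. Among these were the fork reversal translocases ZRANB3 (0.18 ± 0.14 in high) and SMARCAL1 (0.28 ± 0.18 in high), and ZRANB3 differed by 0.36 ± 0.14 in medium (edgeR adjusted p = 0.998). Polymerase zeta shares the subunits of polymerase delta in part. In high POLD1 differed by -0.11 ± 0.11, POLD2 by 0.13 ± 0.19, POLD3 by -0.07 ± 0.10 and POLD4 by -0.13 ± 0.16. In low POLD3 differed by -0.26 ± 0.11 (edgeR adjusted p = 0.911). HELQ, a helicase related to POLQ, differed by -0.10 ± 0.13 in high. CDKN1A, the p53 target that reports DNA damage signalling, averaged 169 ± 6.79 CPM in untreated cells and, from the lowest concentration to the highest, 187 ± 26.5, 168 ± 7.2 and 198 ± 13.5 CPM (SD, 3 libraries each), and so was not ordered by concentration. Its log2 differences from control were 0.19 ± 0.115, 0.03 ± 0.115 and 0.29 ± 0.114 (SE; edgeR adjusted p = 0.911, 0.998 and 0.81).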

How the data were processed

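RNA was isolated with an RNeasy Mini kit and made into paired-end libraries after mRNA capture, per the labels' protocols. Reads were handled with HISAT2 2.2.1, fastp 0.23.4, MultiQC 1.27 and featureCounts 2.0.6 on GRCh38.p14, per the submitters' processing notes. For counting options and strand nothing is stated in the labels. The authors deposited raw counts per gene for 12 libraries and, for each library, CPM, which equalled count divided by library total within 5e-05 and found all 10 members. CPM printed in the text is that quotient.

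Genes were filtered with filterByExpr, scaled with TMM and fitted with edgeR 4.0.16 (R 4.3.3; glmQLFit, glmQLFTest), with 12 libraries in a single model (8 residual degrees of freedom). Each concentration was set against control, with a slope on concentration rank and an F test over groups, and genes were called at a Benjamini-Hochberg adjusted p below 0.05 over 12030 genes. Correlations used log2 CPM with TMM factors and a prior count of 2. The code was tested on simulated counts. Principal transcripts were those tagged by APPRIS in GENCODE 29.

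All members are described. Other genes were named by a fixed list, by the highest correlation, or, for CDKN1A, as a reference gene. The members and lists were chosen with earlier results of these data known. Small counts were mostly even (68.7% of values from 1 to 10), as against 41.7% of the members' values, which ran from 42 to 1487. As these ranges differ, the members' share does not show whether what made small counts even also affects them. No pair of libraries in a group was a duplicate (chi-square per degree of freedom 7.67 to 134). Alternatives used DESeq2 1.42.0, limma 3.58.1 on the deposited CPM, other scalings and filters, a replicate block and left-out libraries.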

Additional observations from a re-analysis of the deposited data

How the results depend on the processing

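No member passed the threshold under any alternative run (DESeq2 size factors or library totals within edgeR, no filter, DESeq2, limma-trend on log2 of CPM plus 1 or 0.1, only the compared groups, a replicate block, each library left out, and, added after seeing the data, low replicate 3 and high replicate 3 left out together). The control levels per kb of principal transcript were added likewise. Of 350 member values under alternatives other than leaving out 1 library, 16 changed sign, none called: in high with library totals, CPM plus 1 and CPM plus 0.1, POLK to -0.03355, -0.03962 and -0.04094, REV3L to -0.04628, -0.04568 and -0.04642, and MAD2L2 to -0.01513, -0.01526 and -0.01561; REV3L in medium to -0.009832, -0.0185 and -0.01892 and in the trend to -0.0008483, -0.000864 and -0.000871; and MAD2L2 in high to -0.001193 without both libraries. Under these 3 settings the median of all genes in high was -0.0533, -0.049 and -0.0538, against 0.0036 in the fit reported.

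With 1 library left out 20 of 480 member values changed sign: for POLI the range was -0.25 to 0.0459 (low), -0.36 to 0.0657 (medium), -0.000159 to 0.24 (high) and -0.000457 to 0.0708 in the trend; POLH from -0.0213 to 0.17, REV3L from -0.0774 to 0.0983 and POLQ from -0.13 to 0.0371 in medium; POLK from -0.0732 to 0.0769, REV1 from -0.0239 to 0.19 and REV3L from -0.0123 to 0.0397 in high; and in the trend POLK from -0.0087 to 0.0431, REV1 from -0.0128 to 0.0464 and POLQ from -0.0551 to 0.00193. The counts over all genes were 0 in each test. With no filter 3 genes were called in low, 7 in medium, 4 in high, 1 in the trend and 35 for any group difference. DESeq2 called 4, 7, 5, 1 and 17. Limma-trend with CPM plus 1 called 1, 2, 1 and 2 in low, medium, high and for any difference. Only the compared groups gave 1 in low and 6 in medium, and library totals gave 1 for any difference. Without low replicate 3 and high replicate 3 there were 1, 1, 1 and 2 in low, medium, high and for any difference. With 1 library left out counts ran from 0 to 2 in low (2 without control replicate 1; 1 without low replicate 2, medium replicate 1 or medium replicate 2), 0 to 2 in medium (2 without control replicate 1, 1 without low replicate 2), 0 to 2 in high (2 without control replicate 1) and 0 to 4 for any difference (4 without low replicate 2, 2 without control replicate 1 or high replicate 3, 1 without medium replicate 1). The cause of these shifts was not tested.

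With the replicate number as a block 0 members were called, and 2 genes for any group difference. Same-numbered libraries deviated together with correlations from -0.375 to 0.582, above 0.1 in 8 of 18 pairs. Low and high replicate 2 gave 0.582, low and high replicate 3 gave 0.502, and control and low replicate 3 gave -0.375. Of the 12 libraries 5 correlated best with their own number. Whether same-numbered libraries shared a batch was not tested, and the labels give only the number. POLI and PRIMPOL had the fewest counts of the members, from 42 and 61 per library, and their counting error is the largest.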

Other observations

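Among the damage tolerance genes around the 10 members, UBE2A, the E2 enzyme that works with RAD18, had 178 to 324 counts in 10 libraries but 14 in low replicate 2 and 10 in high replicate 3. Its log2 difference in high was -1.17 ± 0.87 (SE; edgeR adjusted p = 0.81). It is the only gene of that list with a copy entry in the table, UBE2A_1, which had 0 counts in all 12 libraries, low replicate 2 and high replicate 3 included. As the counting options are not stated, the level of UBE2A stays uncertain. The cause of its low counts in these libraries was not tested. POLN, a polymerase related to POLQ, had 0 to 5 counts per library, and DNTT, the polymerase that adds bases at immunoglobulin joints in early lymphocytes, had 0 in all 12, where the floor of 3 counts stands for 0.151 to 0.327 CPM and covers counting error only. Neither could be tested.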
